A study of Homo sapiens with 6 samples.

Results

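The nuclear genes for the subunits of oxidative phosphorylation were compared between RKO cells carrying a short hairpin RNA against TRIM21 and RKO cells carrying a scrambled hairpin. Members were taken by gene symbol alone: the NDUFA, NDUFB, NDUFC, NDUFS and NDUFV genes, SDHA to SDHD, 8 UQCR genes, 10 COX genes of the common isoforms, and the ATP5F1, ATP5M and ATP5P genes. These patterns matched 77 of 28278 gene rows, with 37 in complex I, 4 in complex II, 8 in complex III, 10 in complex IV and 18 in complex V. Of these, 75 had enough counts to be tested, while NDUFS1, a core complex I subunit, and ATP5MGL were listed at 0 in all 6 libraries. An exact 0 may mean that the row was not counted, so nothing is read from either gene.

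RKO is a human cell line established from a colon carcinoma of poor differentiation. The TRIM21 hairpin group (shTRIM21) and the scrambled hairpin group (shControl) had 3 libraries each, made from total RNA after removal of ribosomal RNA. Both groups were infected with lentivirus and kept in 5 µg/ml puromycin for weeks, starting 36 h after infection, so the controls share the vector and the selection. The labels do not say how many hairpin sequences, clones or separate infections stand behind each group, so p-values measure the spread between these libraries. TRIM21 is an E3 ubiquitin ligase and cytosolic antibody receptor. Its transcript, from chr11:4384897-4393702, had 299, 271 and 297 counts in shTRIM21 libraries and 459, 421 and 343 counts in shControl libraries. It averaged 7.58 ± 0.574 CPM in shTRIM21 and 11.03 ± 1.40 CPM in shControl (SD, n = 3 each), where CPM is the count scaled to library size (counts per 1e+06 after edgeR's TMM factors). The log2 fold change was -0.54 (SE 0.12), with an adjusted p of 0.00424 in edgeR's quasi-likelihood test with Benjamini-Hochberg adjustment over all tested genes.

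Oxidative phosphorylation passes electrons from NADH through complex I, or from succinate through complex II, to ubiquinone, then through complex III and cytochrome c to oxygen at complex IV. Complexes I, III and IV pump protons across the inner mitochondrial membrane, and complex V, the ATP synthase, uses the gradient to make ATP. All of these except complex II also need subunits encoded in mitochondrial DNA, which are not analysed here. The nuclear genes do not share a single control element, but the factors NRF1, the ETS factor GABPA, YY1 and ESRRA are known to bind many of their promoters.

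The transcripts of these genes moved little. Members fell in shTRIM21 cells for 8 of 75 tested genes, or 10.7%, and no member rose. Over all 15131 tested genes 20.8% were called at an adjusted p under 0.05, with 11.0% lower and 9.77% higher in shTRIM21, and among genes averaging 10 CPM or more 25.4% were called. The share of members that fell is thus near the share of all genes that fell, and the share called in either direction lay below that of all genes. The 8 genes are NDUFS7, NDUFB7 and NDUFS6 of complex I, UQCRC1 of complex III, COX7A2 and COX8A of complex IV, and ATP5F1B and ATP5MC2 of complex V. Their calls depend on single libraries: NDUFS7 alone was called whichever library was left out.

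The promoters of 4 of these genes and of SDHD are printed because they show the 4 factor words searched, and because the words stand in promoters of genes that were called and of 1 that was not. Sequences were read from RefSeq (GRCh38.p14) and are written 5′ to 3′ on the gene's strand from 250 bases before the annotated start to just after it. Capitals mark a match to one of the words on either strand. The words were GCGCA, any base, then GCGC for NRF1, CCGGAAG for ETS factors such as GABPA, AAGATGGCG for YY1 and TCAAGGTCA for ESRRA. No printed base belongs to more than 1 word. NDUFS7 (chr19:1383657-1383936, plus strand) holds a YY1 word just after its start.
NDUFS7: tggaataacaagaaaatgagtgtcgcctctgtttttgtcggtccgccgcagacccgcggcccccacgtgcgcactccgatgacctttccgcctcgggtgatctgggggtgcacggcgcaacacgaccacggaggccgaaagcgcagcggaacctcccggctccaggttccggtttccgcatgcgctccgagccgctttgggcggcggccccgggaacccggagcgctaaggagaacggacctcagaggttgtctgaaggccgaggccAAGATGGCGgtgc
NDUFB7 (chr19:14572037-14572316, minus strand) holds an ETS word upstream of its start.
NDUFB7: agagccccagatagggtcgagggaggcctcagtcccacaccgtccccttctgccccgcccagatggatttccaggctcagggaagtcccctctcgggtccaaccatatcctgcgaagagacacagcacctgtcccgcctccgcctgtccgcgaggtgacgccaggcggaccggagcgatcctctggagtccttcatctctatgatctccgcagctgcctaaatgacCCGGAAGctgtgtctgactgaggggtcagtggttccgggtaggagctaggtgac
UQCRC1 (chr3:48609615-48609896, minus strand) holds an NRF1 word upstream and a YY1 word downstream of its start.
UQCRC1: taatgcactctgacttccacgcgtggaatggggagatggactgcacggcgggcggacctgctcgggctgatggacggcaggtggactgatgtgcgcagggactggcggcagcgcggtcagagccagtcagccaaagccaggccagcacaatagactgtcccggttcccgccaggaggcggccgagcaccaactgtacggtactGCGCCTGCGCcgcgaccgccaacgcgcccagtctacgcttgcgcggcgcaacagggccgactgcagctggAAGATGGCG
COX8A (chr11:63974370-63974649, plus strand) holds an ETS word, here on the reverse strand.
COX8A: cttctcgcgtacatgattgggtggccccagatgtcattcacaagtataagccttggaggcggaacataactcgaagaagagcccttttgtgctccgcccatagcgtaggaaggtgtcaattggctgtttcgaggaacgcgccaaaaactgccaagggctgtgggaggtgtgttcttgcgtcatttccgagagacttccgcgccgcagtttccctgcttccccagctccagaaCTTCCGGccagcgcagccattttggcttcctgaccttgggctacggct
SDHD (chr11:112086623-112086902, plus strand), whose gene was not called, holds an NRF1, an ETS and an ESRRA word.
SDHD: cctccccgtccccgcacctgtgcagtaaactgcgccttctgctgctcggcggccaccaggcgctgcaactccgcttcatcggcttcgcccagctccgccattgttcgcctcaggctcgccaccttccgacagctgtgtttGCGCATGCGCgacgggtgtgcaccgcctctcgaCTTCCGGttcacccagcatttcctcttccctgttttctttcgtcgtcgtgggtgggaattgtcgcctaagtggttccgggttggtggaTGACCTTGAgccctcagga

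Promoters were found in the RefSeq table for 64 of the 77 members and were searched from 250 bases before to 50 bases after the start. The NRF1 word stood in 16 of them, or 25%, against 6.977% of the 27305 genes in the table. Those genes were taken whether or not they were tested here. The ETS word stood in 21 members, or 32.81%, against 12.16% of all genes in the table. The YY1 word stood in 9 members, or 14.06%, against 2.135%, and the ESRRA word in 1 member, SDHD, or 1.562%, against 0.4322%. At least 1 of the 4 words was present in 4 of 7 promoters of genes that fell and in 34 of 56 promoters of tested genes that were not called. A match is a run of letters and does not show that a factor binds there.

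**Figure D1:**
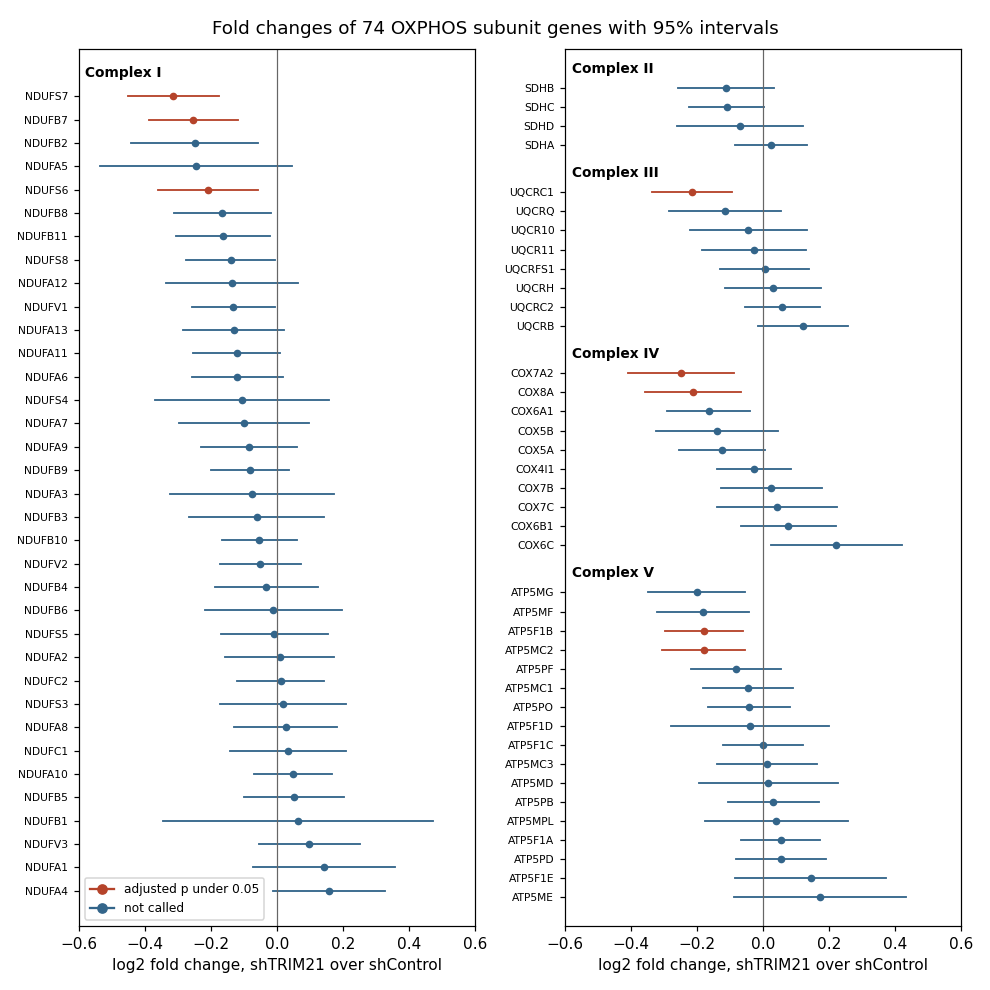
Log2 fold changes (shTRIM21 over shControl, x axis) of 74 of the 75 tested members with 95% intervals (lines), by complex; red marks an adjusted p under 0.05. The estimates lie between -0.31 (NDUFS7) and 0.22 (COX6C), and the 8 called genes all lie below 0.

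Before the single genes, 1 library needs to be named. shTRIM21 replicate 3 had the lowest CPM of the 6 libraries for 55 of 75 members and the highest for none, and shTRIM21 replicate 1 had the highest for 36 members. Relative to each gene's mean over the libraries on the log2 CPM scale, the median member stood at 0.073, -0.0022 and -0.15 in shTRIM21 replicates 1, 2 and 3, and at 0.013, 0.038 and 0.026 in the shControl replicates. The shTRIM21 libraries therefore lay on both sides of the shControl libraries. Medians over all tested genes lay between 0.00097 and 0.0057 in every library. Cytosolic ribosomal protein genes had a like order, with medians of 0.084, -0.017 and -0.14 in shTRIM21 and 0.039, 0.014 and 0.0059 in shControl.

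Over all genes, deviations went with transcript length in opposite directions in shTRIM21 replicates 3 and 1. In shTRIM21 replicate 3, deviations from the group mean had a Spearman correlation with transcript length of 0.252 over 14519 genes, and in shTRIM21 replicate 1 it was -0.225; all genes of a library share its preparation, so these are descriptions with no test. Over the 75 members alone the same correlation was -0.113, -0.142 and 0.204 in shTRIM21 replicates 1, 2 and 3. In shControl replicates 1, 2 and 3 it was -0.215, 0.144 and 0.0975. Relative to the mean of the 6 libraries, the 44 members with transcripts under 1000 bases had a median of -0.17 in shTRIM21 replicate 3 and 0.071 in replicate 1, and the 31 longer ones -0.12 in replicate 3 and 0.073 in replicate 1. The part that transcript length or RNA quality has in the calls was not tested.

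**Figure D2:**
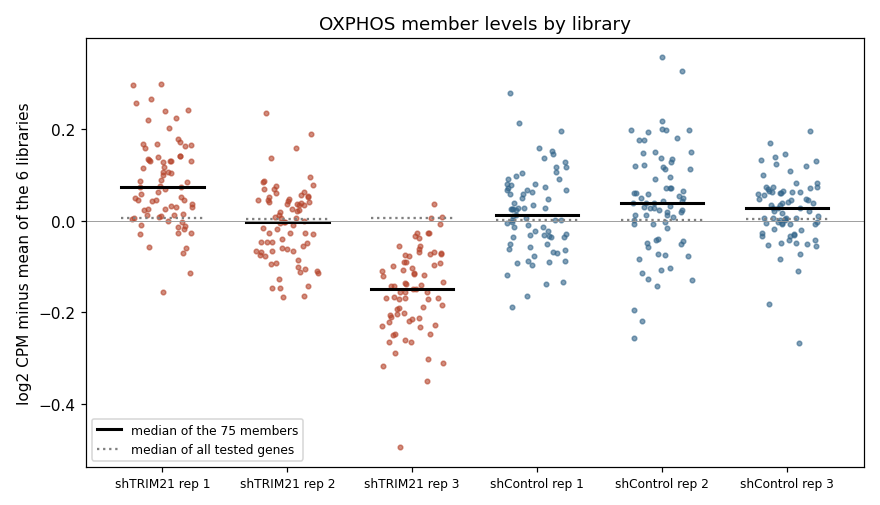
Log2 CPM of each of the 75 members minus its mean over the 6 libraries (y axis), by library (x axis). Solid bars are medians of the members and dotted bars medians of all tested genes; shTRIM21 replicate 3 lies lowest with a median of -0.15.

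Without shTRIM21 replicate 3, 5 members were called: NDUFS7 and NDUFB7 fell, while COX6C, NDUFA4 and ATP5F1E rose. That was 6.67% of members, against 16.2% of all tested genes. Those 3 that rose had positive estimates but were not called with all libraries, and the other 6 genes that had fallen lost their calls. The members' median log2 fold change was then 0.010, against -0.045 with all 6 libraries, and 38 of 75 estimates were above 0, against 29 with all libraries. Leaving out shTRIM21 replicate 1 gave 12 called members, all lower, or 16% against 16.4% of all tested genes. Leaving out shTRIM21 replicate 2 left only NDUFS7 and NDUFB7, or 2.67% against 12% of all tested genes. Without shControl replicates 1, 2 and 3 in turn, 3, 4 and 6 members were called. These were 4%, 5.33% and 8% of members, against 16.9%, 16.4% and 15.3% of all tested genes. The number of members called is therefore uncertain, and NDUFS7 and NDUFB7 are the ones that rest least on a single library.

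The members' sizes of change were narrow. The median log2 fold change was -0.045 over the members and 0.0054 over all tested genes, and the median size regardless of sign was 0.081 for members and 0.16 for all genes. Estimates were below 0 for 46 members and above 0 for 29. All 75 estimates were smaller than 1.25-fold in either direction, against 77.1% of all tested genes. The genes compared were not matched for level: the median was 57.06 CPM over members and 18.28 CPM over all tested genes. The part that level has in the narrower sizes was not tested. The 95% intervals of all 75 members lay inside 1.5-fold, 67 inside 1.3-fold and 56 inside 1.25-fold. SEs of the log2 fold changes ran between 0.051 and 0.19, with a median of 0.068. Members had 87 to 29527 counts per library, and 17 had an unadjusted p under 0.05, of which 16 were lower. Over all 15131 tested genes 5158 had such a p, 2627 of them lower and 2531 higher.

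The groups did not overlap in CPM for 17 members, all lower in shTRIM21, or 22.7% of 75, and no member had all shTRIM21 libraries above all shControl libraries. Over all tested genes 19.0% lay lower without overlap and 18.7% higher. The 17 are NDUFS7, NDUFB7, NDUFS6, NDUFB2, NDUFB8, NDUFV1, NDUFS8, NDUFB9 and NDUFB10 in complex I, SDHC in complex II, UQCRC1 in complex III, COX8A and COX6A1 in complex IV, and ATP5F1B, ATP5MC2, ATP5MG and ATP5MF in complex V. COX7A2 was called although its groups overlapped.

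In complex I, which oxidises NADH, 3 of 36 tested genes fell and none rose, with a median log2 fold change of -0.067. Of the 7 nuclear core subunits, which carry the flavin and the iron-sulfur clusters or line the quinone site, 6 were tested and only NDUFS7 fell. Of the 30 other members with complex I symbols, which include NDUFA4, 2 fell. NDUFAB1 is outside the rule and is given below with the other subunits. Complex I genes summed to 1829, 1733 and 1583 CPM in shTRIM21 and 1797, 1828 and 1796 CPM in shControl. The sums of shTRIM21 replicates 2 and 3 lay below every shControl library, and that of replicate 1 lay just above the highest.

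NDUFS7 (chr19:1383907-1395584) encodes the core subunit that holds cluster N2, the last iron-sulfur cluster before ubiquinone. It had 47.9, 44.6 and 42.0 CPM in shTRIM21 libraries and 54.9, 58.1 and 54.3 CPM in shControl libraries. Every shTRIM21 library lay below every shControl library. The log2 fold change was -0.31 (SE 0.065), a 1.24-fold lower level, with an adjusted p of 0.00314 in edgeR's quasi-likelihood test. It was called in 15 of 16 alternative settings.

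NDUFB7 (chr19:14566078-14572066), a supernumerary subunit of the membrane arm, had 65.1, 60.9 and 57.0 CPM in shTRIM21 and 76.1, 72.3 and 69.4 CPM in shControl. The groups did not overlap. Its log2 fold change was -0.25 (SE 0.063), with an adjusted p of 0.0112 in edgeR's test, and the call was lost without shControl replicate 1.

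NDUFS6 (chr5:1801407-1816048), a supernumerary subunit of the matrix arm that binds zinc, had 28.6, 26.8 and 25.3 CPM in shTRIM21 and 30.4, 30.8 and 31.9 CPM in shControl. The groups lay apart, but the adjusted p was 0.0498 in edgeR's test, at a log2 fold change of -0.21 (SE 0.071). The call held in 4 of 16 alternatives and was lost without any library other than shTRIM21 replicate 1. NDUFS6 overlaps MRPL36 on the genome, so reads of the 2 genes could be mixed.

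Other core subunits did not pass the test. NDUFV1, which binds NADH and the flavin, had a log2 fold change of -0.13 (adjusted p = 0.126 in edgeR's test), and NDUFS8, which carries a pair of iron-sulfur clusters, had -0.14 (adjusted p = 0.134). Both lay lower in every shTRIM21 library than in any shControl library. NDUFV2 was at -0.05 and NDUFS3 at 0.02. By level per transcript length, NDUFB9 was highest in complex I at 221 CPM per kb. It had 150.0, 149.9 and 134.0 CPM in shTRIM21 and 151.3, 154.8 and 152.9 CPM in shControl, and was not called (log2 fold change -0.08, adjusted p = 0.328).

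NDUFA4 carries a complex I name but its protein is known to belong with complex IV, and RefSeq lists it as COXFA4. It had 44.4, 42.4 and 35.7 CPM in shTRIM21 and 36.0, 35.3 and 38.5 CPM in shControl. Replicates 1 and 2 of shTRIM21 were above all shControl libraries and replicate 3 was within their range. The log2 fold change was 0.16 (SE 0.079), with an adjusted p of 0.175 in edgeR's test, and 0.24 with an adjusted p of 0.0279 without shTRIM21 replicate 3.

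Complex II, the succinate dehydrogenase that also serves the TCA cycle, had 4 genes and none was called. SDHC, a membrane anchor, had the smallest p. It had 112.2, 111.4 and 113.8 CPM in shTRIM21 and 118.6, 128.3 and 117.3 CPM in shControl. The groups lay apart with shTRIM21 lower, at a log2 fold change of -0.11 (SE 0.053) and an adjusted p of 0.159 in edgeR's test. SDHA, the flavoprotein, was at 0.02, SDHB, the iron-sulfur subunit, at -0.11, and SDHD, the other anchor, at -0.07. SDHD had 73.0 CPM in shTRIM21 replicate 3, below its other 5 libraries at 90.6 to 101.6 CPM.

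In complex III, which passes electrons to cytochrome c, 1 of 8 genes fell. UQCRC1 (chr3:48599002-48609646), a core subunit of the matrix side, had 174.2, 163.0 and 151.4 CPM in shTRIM21 and 191.6, 186.6 and 189.1 CPM in shControl. All shTRIM21 libraries were lower, and the log2 fold change was -0.22 (SE 0.057) with an adjusted p of 0.0145 in edgeR's test. The call was lost without shTRIM21 replicate 2 or replicate 3, with an adjusted p of 0.0518 in edgeR's test without replicate 3. UQCRC1 overlaps the small nucleolar RNA gene SNORA94.

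The partner core subunit UQCRC2 did not pass, with a log2 fold change of 0.06 (adjusted p = 0.484 in edgeR's test), and UQCRFS1, the Rieske iron-sulfur protein, was at 0.00. UQCRH, the hinge protein, was highest in complex III per transcript length at 142.6 CPM per kb. It had 94.7, 88.9 and 77.5 CPM in shTRIM21 and 83.0, 85.5 and 87.3 CPM in shControl, and the shControl values lay within the shTRIM21 range. The remaining genes, UQCRQ, UQCR10, UQCR11 and UQCRB, had log2 fold changes between -0.12 and 0.12.

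In complex IV, cytochrome c oxidase, 2 of 10 genes fell and the median log2 fold change was -0.076. COX7A2 (chr6:75237675-75250298), the widely expressed form of subunit 7A, had 50.6, 44.7 and 41.3 CPM in shTRIM21 and 55.0, 56.8 and 50.5 CPM in shControl. The highest shTRIM21 library lay just above the lowest shControl library. Its log2 fold change was -0.25 (SE 0.076), with an adjusted p of 0.0303 in edgeR's test, and the call was lost without shTRIM21 replicate 2 or 3 or shControl replicate 1 or 2.

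COX8A (chr11:63974620-63976543), the widely expressed form of subunit 8, had 148.4, 126.1 and 120.7 CPM in shTRIM21 and 148.6, 154.6 and 154.9 CPM in shControl. Replicate 1 of shTRIM21 almost met the lowest shControl library and replicates 2 and 3 were lower. The log2 fold change was -0.21 (SE 0.068), with an adjusted p of 0.0383 in edgeR's test. The call was lost without any 1 library other than shTRIM21 replicate 1.

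COX6C had the highest estimate of all members. It had 50.8, 46.1 and 37.5 CPM in shTRIM21 and 36.2, 37.8 and 41.3 CPM in shControl, with replicate 3 of shTRIM21 inside the shControl range and the others above it. The log2 fold change was 0.22 (SE 0.093) with an adjusted p of 0.108 in edgeR's test, and 0.33 with an adjusted p of 0.00856 without shTRIM21 replicate 3. COX4I1, a subunit that joins early in assembly, was highest in complex IV per transcript length at 284 CPM per kb. It had 208.5, 203.0 and 189.6 CPM in shTRIM21 and 205.7, 199.7 and 206.8 CPM in shControl, which overlapped. COX6A1 was not called at -0.16 (adjusted p = 0.0609), and COX5A, COX5B, COX6B1, COX7B and COX7C had log2 fold changes between -0.14 and 0.08.

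In complex V, 2 of 17 tested genes fell and the median log2 fold change was -0.00057. ATP5F1B (chr12:56638175-56645984) encodes the beta subunit that holds the catalytic sites and had the highest level per transcript length of all members, 404.8 CPM per kb. It had 728.3, 691.8 and 674.2 CPM in shTRIM21 and 773.5, 803.3 and 795.2 CPM in shControl. Every shTRIM21 library was lower, at a log2 fold change of -0.18 (SE 0.055) and an adjusted p of 0.0312 in edgeR's test. The call was lost without shTRIM21 replicate 2 or 3 or shControl replicate 3. ATP5F1B overlaps BAZ2A and the small nucleolar RNA genes SNORD59A and SNORD59B.

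ATP5MC2 (chr12:53665170-53681423), 1 of 3 genes for the proton-carrying c ring, had 125.4, 123.2 and 122.9 CPM in shTRIM21 and 146.9, 146.0 and 127.9 CPM in shControl. The shTRIM21 libraries were tightly grouped below all shControl libraries. Its log2 fold change was -0.18 (SE 0.059), with an adjusted p of 0.0428 in edgeR's test, and the call was lost without any 1 library other than shControl replicate 3. The other c ring genes were not called, with ATP5MC1 at -0.05 and ATP5MC3 at 0.01. The mature protein is the same for all 3 genes.

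ATP5F1A, the alpha subunit that pairs with beta, had 399.0, 382.7 and 352.7 CPM in shTRIM21 and 361.7, 356.1 and 375.4 CPM in shControl. It was not called (log2 fold change 0.05, adjusted p = 0.543 in edgeR's test), and whether alpha and beta differed from each other was not tested. ATP5MG and ATP5MF, subunits of the membrane part, lay lower without overlap at -0.20 and -0.18, with adjusted p of 0.0506 and 0.0612. ATP5F1E, the epsilon subunit, had 43.7, 41.5 and 30.3 CPM in shTRIM21 and 34.1, 32.9 and 37.5 CPM in shControl, with replicate 3 of shTRIM21 lowest of the 6. Its log2 fold change was 0.14 with all libraries and 0.29 (adjusted p = 0.0174 in edgeR's test) without that library.

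**Figure D3:**
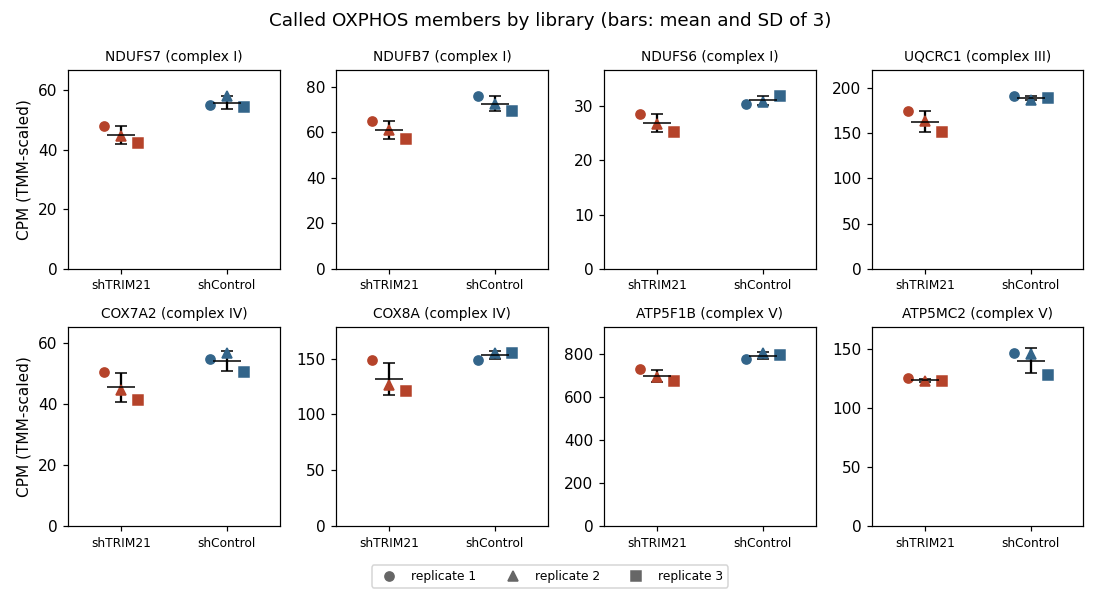
CPM after TMM scaling (y axis) of the 8 called members in each library, shTRIM21 left (red) and shControl right (blue), with mean and SD of 3. The groups lie apart for NDUFS7, NDUFB7, NDUFS6, UQCRC1, ATP5F1B, ATP5MC2 and, narrowly, COX8A, while they overlap for COX7A2.

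Summed over each complex, levels overlapped between the groups. All tested members summed to 5871 ± 399 CPM in shTRIM21 and 6153 ± 88.5 CPM in shControl (SD, n = 3 each). The SD in shTRIM21 exceeded the difference of the means. Complex V summed to 2174 ± 126 CPM in shTRIM21 and 2280 ± 41.9 CPM in shControl, and complex IV to 851.9 ± 71.9 CPM in shTRIM21 and 901.9 ± 11.2 CPM in shControl. In such bulk samples, fewer expressing cells and less RNA per cell cannot be told apart.

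Levels per transcript length depend on which transcript is taken. They use the median length over RefSeq-matched transcripts of each gene, and for 15 of the 75 members those lengths differ at least 2-fold. SDHC, highest in complex II at 226.8 CPM per kb, would be at 8.62 CPM per kb with its longest transcript. Median levels were 37.3 CPM per kb in complex I, 82.4 in II, 55.6 in III, 89.3 in IV and 91.3 in V, and the lowest member was NDUFA9 at 6.16 CPM per kb. Fold changes are not affected by length in this way. Over the members, log2 fold changes had a Spearman correlation of -0.416 with the GC content of the transcript and 0.172 with its length, against 0.00057 for GC over 14519 tested genes; genes of a library share its preparation, and no p is given.

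The wider pathway was covered by lists of related genes, chosen with earlier results of these data known. Together, 30 of 197 tested genes, or 15.2%, were called, 5 higher and 25 lower, with a median log2 fold change of -0.047 against 0.0054 over all genes. Over all tested genes 20.8% were called, 9.77% higher and 11.0% lower, which is the background for each list count that follows. These medians are descriptions, and no list was tested as a set.

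Other subunits and cytochrome c, 8 tested, held 1 gene that fell: NDUFAB1, the mitochondrial acyl carrier protein, at -0.26 (adjusted p = 0.0167 in edgeR's test). CYC1, the cytochrome c1 of complex III, was at -0.13 and CYCS, cytochrome c, at -0.16, and ATP5IF1, the inhibitor of complex V, at 0.14, none of them called. The heart, testis or lung forms COX4I2, COX6A2 and COX7B2, and UQCRHL, were listed at 0.

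Assembly factors moved in both directions. Of 17 for complex I, TIMMDC1 (0.33) and NUBPL (0.47), which delivers iron-sulfur clusters, rose and ECSIT (-0.31) fell. Of 6 for complex III, UQCC3 (-0.31) and BCS1L (-0.29), which inserts the Rieske protein, fell. Of 23 for complex IV, COX15 (0.25), which makes heme A, and COA5 (0.31) rose and COA7 (-0.24) fell. None of the 4 for complex II or the 4 for complex V was called.

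In the TCA cycle and pyruvate dehydrogenase, which feed the chain, 4 of 18 genes fell and none rose. CS, citrate synthase, had 218.8, 222.2 and 224.3 CPM in shTRIM21 and 259.2, 275.6 and 269.2 CPM in shControl. The groups lay well apart and shTRIM21 replicate 3 was not low, at a log2 fold change of -0.27 (SE 0.049, adjusted p = 0.00126 in edgeR's test). DLAT (-0.23) and PDHX (-0.29) of pyruvate dehydrogenase also fell.

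Of 16 genes of mitochondrial DNA expression, POLG, the mitochondrial DNA polymerase, fell (-0.19). TFAM, which packages mitochondrial DNA, was at -0.11 and not called. Of 8 tested regulators, PPRC1 (-0.20), a PGC1-related coactivator, and HCFC1 (-0.18), a chromatin-bound cofactor, fell. The genes of the factors whose words were searched were not called: NRF1 was at -0.04, GABPA at -0.11, YY1 at 0.03 and ESRRA at -0.18. PPARGC1A was listed at 0.

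Among 8 genes for other routes to ubiquinone and for import, ETFDH, which feeds electrons from fat oxidation, rose (0.30). Of 7 carriers and porins, SLC25A6, an ADP/ATP carrier, fell (-0.32) and so did VDAC1, the outer membrane channel (-0.25). Mitochondrial ribosomal proteins, which make the mitochondrially encoded subunits, fell for 5 of 49 in the large subunit, led by MRPL54 (-0.46) and MRPL37 (-0.21), and 6 of 29 in the small subunit, led by MRPS24 (-0.39) and MRPS18B (-0.27). Cytosolic ribosomal proteins, a set of short and abundant transcripts outside mitochondria, fell for 5 of 77, RPS9 (-0.22) among them.

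Some of these calls rest on single libraries. With each library left out in turn, CS, SLC25A6, VDAC1, TIMMDC1, NUBPL, ECSIT, UQCC3, COX15, MRPL54, MRPS24 and MRPS18B stayed called. COA7, MRPL37 and DLAT lost the call without shTRIM21 replicate 2, PDHX without shTRIM21 replicate 3 or shControl replicate 2 or 3, and BCS1L without shTRIM21 replicate 2 or shControl replicate 3. NDUFAB1 lost it without shTRIM21 replicate 2 or 3 or shControl replicate 2. PPRC1 lost it without shTRIM21 replicate 1 or 2 or shControl replicate 3. RPS9 lost it without shTRIM21 replicate 2 or 3 or shControl replicate 1 or 2, ETFDH without shTRIM21 replicate 1 or 2 or shControl replicate 1 or 2, and POLG without shTRIM21 replicate 1 or 2 or shControl replicate 2 or 3. COA5 and HCFC1 lost it without shTRIM21 replicate 1 or 2 or shControl replicate 1 or 3.

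**Figure D4:**
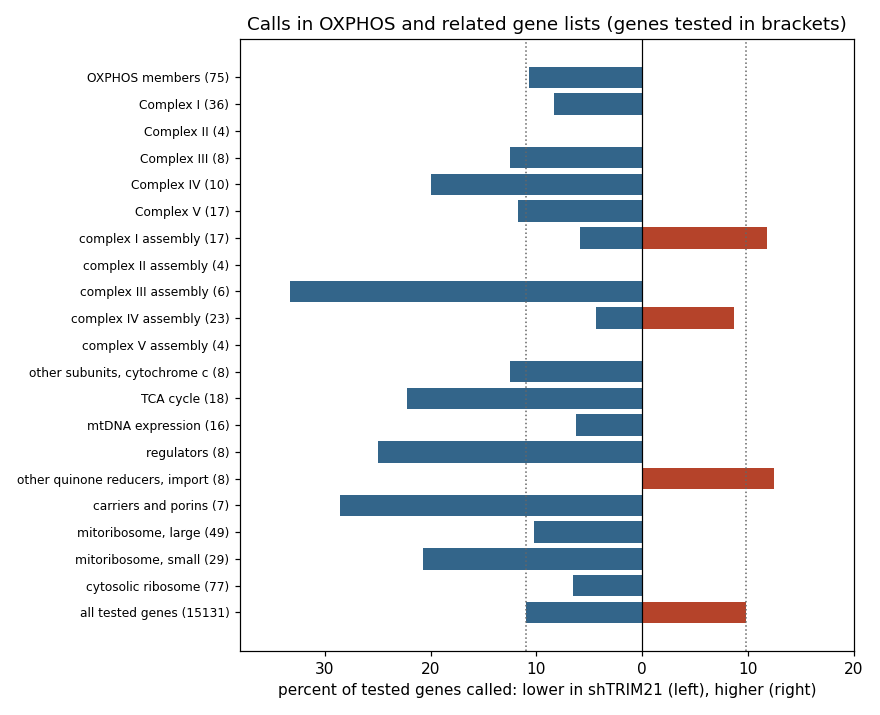
Percent of tested genes called (x axis) lower in shTRIM21 (left of 0) or higher (right of 0), for the members, each complex, related lists and all tested genes; dotted lines mark all genes at 11.0% and 9.77%. The members and the ribosomal lists show calls on the lower side alone, while assembly factors of complexes I and IV show both.

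The libraries held 33499827 to 44466137 counts, of which ribosomal RNA rows took 16.99% to 23.52% in shTRIM21 and 14.69% to 36.93% in shControl; without those rows they held 27808151 to 29100459. Replicates differed beyond sampling noise, so none was a repeat deposit. The cells expressed epithelial genes, whose 7 markers summed to 186054 to 198647 counts in shTRIM21 and 235951 to 253566 counts in shControl, with KRT8, KRT18 and KRT19 lower and CDH1 higher. Fibroblast markers, 7 in all, summed to 394 to 417 counts in shTRIM21 and 226 to 339 counts in shControl, with DCN, LUM and THY1 at 0. Most of these were COL1A1, with 378, 394 and 398 counts in shTRIM21 and 322, 222 and 329 counts in shControl. COL1A1 was not called (log2 fold change 0.37, adjusted p = 0.0589 in edgeR's test). The 8 immune markers summed to 250 to 293 counts in shTRIM21 and 273 to 335 counts in shControl, with CD3E and MS4A1 at 0. HLA-DRA alone was called, higher, at 36, 28 and 14 counts in shTRIM21 and 10, 11 and 7 counts in shControl. CD68, the other tested immune marker, lay lower, at 248, 229 and 219 counts in shTRIM21 and 304, 273 and 256 counts in shControl. It was not called (log2 fold change -0.31, adjusted p = 0.0813 in edgeR's test). The 6 endothelial markers summed to 13 to 29 counts in shTRIM21 and 18 to 28 counts in shControl, with CDH5 and ERG at 0. The part that the epithelial, fibroblast and immune marker changes have in the members' calls was not tested.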

How the data were processed

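Total RNA of 6 RKO libraries was sequenced after ribosomal RNA removal, per the labels' protocols. Each library came as a deposited table of raw read counts by the authors, with 28278 rows named by gene symbol. The submitters' processing notes name TopHat2, edgeR 3.38.1, limma 3.52.2 and hg38, with no role. How reads were counted, with which annotation and strand setting, is not given in the sources used here; 33 of 77 members overlap another RefSeq gene, so their reads may be mixed. One label field says mouse tissue, while the organism, line and symbols are human.

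Counts were analysed in R 4.3.3 with edgeR 4.0.16: filterByExpr (minimum count 10, minimum total 15), TMM scaling, quasi-likelihood F test on group alone, Benjamini-Hochberg adjustment over 15131 genes, called under 0.05. DESeq2 1.42.0 was an alternative. The code was tested on simulated data. Lengths and GC content are from GENCODE 29; positions and promoters are from RefSeq.

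Members and lists were chosen with earlier results of these data known. Genes named were TRIM21, NDUFA4, the called members, the smallest p in a complex with no call, the highest level per length in each complex, genes listed at 0, and per list and direction the 2 called genes with the smallest p. Further members, factor genes and DLAT and PDHX were named after their values were seen. Some genes the rule took are not reported here.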

Additional observations from a re-analysis of the deposited data

How the results depend on the processing

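The members' median minus that of all genes was -0.050 with all libraries and TMM factors, and was compared over 16 alternatives. It lay between -0.055 and -0.050 under the other scalings, and at -0.035 with GC and length offsets, with or without a replicate block. It was -0.097 without shTRIM21 replicate 1 and 0.0057 without shTRIM21 replicate 3. With upper-quartile factors 3 members were called, all 3 lower, with 0 in complex IV and 0 in complex V. These factors called 20.2% of all tested genes. Of all calls 62.1% were higher, against 47% with TMM factors. With library sizes alone the ribosomal RNA shares enter the scale: the median log2 fold change was 0.22 over all genes and 0.16 over members, 0.055 below it. Of 1969 genes called, 138 were lower; 0 members were called, 0 lower and 0 in complex I, III, IV or V, related lists had 7 calls, and TRIM21 was at -0.34 (adjusted p = 0.197 in edgeR's test). The median over members, -0.045 with TMM factors, thus turned positive. Among the called genes compared across settings, signs turned to small positive values for NDUFS6 (0.0049), ATP5F1B (0.029), ATP5MC2 (0.024) and POLG (0.026). The same held for PPRC1 (0.021), HCFC1 (0.035), MRPL9 (0.012), MRPL38 (0.024), RPL35 (0.014) and RPS15 (0.021). The other 5 members that had been called stayed negative but lost the call.

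RLE factors and DESeq2 called 9 members each, and no filter or no ribosomal RNA rows 10 each. GC and length offsets called 10, of which 1 was higher. Of all tested genes, RLE factors called 20.8%, DESeq2 20.6%, no filter 16.7%, no ribosomal RNA rows 21.4% and these offsets 24.1%. Replicate numbers did not pair the samples (correlations of same-numbered deviations -0.013, 0.0057 and -0.080). A replicate block called 6 members, 1 in complex V, and 9 with GC and length offsets as well. The block called 19.2% of all tested genes, and 22.1% with those offsets.

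Leaving out 1 library at a time gave 1844 to 2592 changed genes (841 to 1211 higher, 1003 to 1398 lower) and 2 to 12 members (0 to 3 higher, 2 to 12 lower). By complex it gave 1 to 5 in I, 0 in II, 0 to 1 in III, 0 to 4 in IV and 0 to 2 in V, and 16 to 29 calls in related lists. The members' median ran between -0.095 and 0.010, and TRIM21 between -0.65 and -0.47. Without shControl replicates 1 and 3, the libraries richest in ribosomal RNA, 1958 genes were called (854 higher, 1104 lower), with 4 members, all 4 lower, 1 in complex I, 0 in III and 1 in IV, and 14 in related lists; the lone control library is assumed to vary like the others. The called members outside complexes I and IV were in complex V. In that fit the median log2 fold change was -0.057 over members and 0.0090 over all tested genes. The spread between controls cannot be estimated from 1 library, so its counts are descriptions. Values of single genes, single lists and medians by complex were compared under the alternatives. Of these, 1804 stayed on their side of the threshold or within the spread, 179 lost a call and 23 gained one. A further 48 counts or medians moved and 10 called genes changed sign, those named above for library sizes alone. Sign changes of genes not called are not in the 10: SDHD ran from -0.17 to 0.056 with 1 library left out. The cause of these shifts was not tested. Depth varied widely over members: NDUFB1, at 87 to 127 counts, had the largest SE of the members (0.19) and an interval of -0.34 to 0.47. No alternative changed the depth.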
